A study of Homo sapiens with 4 samples.

Results

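The bone morphogenetic protein (BMP) pathway and its secreted antagonist noggin were followed through 10 genes in HGC-27, a line of human gastric cancer cells. These were the antagonists NOG and BMPER, the ligand BMP4, the receptors BMPR1A and BMPR2, and the target genes ID1, ID2, ID3, SMAD6 and SMAD7, found by symbol among the 62443 genes of the deposited table. The genes were chosen by name with the difference between GLUP-treated and control libraries already known, so their values are given as a description and without a test. GLUP is a macrocyclic glue peptide modelled on the TEAD4-binding motif of VGLL4 and built to draw TEAD4, a transcription factor of the Hippo pathway, into repressive condensates. RNA was sequenced from 2 libraries of cells given GLUP at 10 μg/ml and from 2 control libraries. The labels give the control cells no treatment, whereas the methods name the peptide's stocking buffer. The duration is given both as 12 h and as 48 h. All libraries came from one unmodified cell line in culture, with no TEAD4-deleted arm.

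Noggin binds BMP ligands outside the cell and keeps them from their receptors. A free ligand such as BMP4 brings type I receptors (BMPR1A) and type II receptors (BMPR2) together, SMAD1, SMAD5 and SMAD9 are phosphorylated, and with SMAD4 they switch on target genes. ID1, ID2 and ID3 are the classical immediate targets, encoding proteins that bind bHLH transcription factors and hold them off DNA, and SMAD6 and SMAD7 are feedback inhibitors induced by the same signal. In the stomach the pathway is known for its part in epithelial differentiation, and noggin is a standard additive of gastric organoid media. In this scheme less noggin goes with more ligand at the receptor and higher target genes, so the question put to the data was how the 5 targets stood when NOG differed.

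The windows just before the start sites of the 3 ID genes are shown because these genes, which share this input, stood on different sides in the GLUP libraries. Each run holds the 250 bases before the RefSeq start on GRCh38.p14, read 5′ to 3′ on the gene's strand, with capitals for letters that match a searched motif.
ID1: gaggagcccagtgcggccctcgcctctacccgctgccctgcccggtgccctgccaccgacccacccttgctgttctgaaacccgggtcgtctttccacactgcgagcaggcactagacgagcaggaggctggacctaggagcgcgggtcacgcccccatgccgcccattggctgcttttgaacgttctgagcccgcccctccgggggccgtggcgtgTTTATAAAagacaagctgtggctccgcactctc
ID2: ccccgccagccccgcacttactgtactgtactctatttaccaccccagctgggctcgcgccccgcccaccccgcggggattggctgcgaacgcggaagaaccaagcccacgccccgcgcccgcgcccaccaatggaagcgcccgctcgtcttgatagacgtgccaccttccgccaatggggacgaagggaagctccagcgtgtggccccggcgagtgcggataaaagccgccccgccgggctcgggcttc
ID3: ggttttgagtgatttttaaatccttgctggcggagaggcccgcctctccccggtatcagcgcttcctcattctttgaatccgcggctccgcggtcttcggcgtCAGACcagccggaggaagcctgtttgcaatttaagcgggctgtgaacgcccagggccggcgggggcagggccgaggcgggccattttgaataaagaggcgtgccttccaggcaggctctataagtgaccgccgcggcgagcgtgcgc
The windows lie at chr20:31605039-31605288 (plus strand), chr2:8681806-8682055 (plus strand) and chr1:23559502-23559751 (minus strand). The motifs searched on both strands were CAGAC, the SMAD box, GGCGCC, a GC-rich site of SMAD1 and SMAD5, CATTCC, the M-CAT core of TEAD factors, and TATAAA, the TATA box. ID3 held 1 SMAD box, 147 bases before its start, and ID1 held overlapping TATA boxes on both strands, 33 and 31 bases before its start. None of the 4 motifs was in the ID2 window or in that of SMAD6, which is not shown. The 3 windows of SMAD7 start sites, also not shown, held 2, 1 and 0 SMAD boxes. Of all 35116 RefSeq windows of this length, 38.0% held CAGAC, 16.4% GGCGCC, 11.9% CATTCC and 10.7% TATAAA. These matches describe letters, not sites in use, and sites further from the start were not searched. NOG was not in the table of start-site windows.

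Expression is given as FPKM, the fragments of a gene scaled by its length and by the library's mapped fragments. Differences are GLUP minus control on the log2(FPKM + 1) scale, which understates the change of low genes. The 7588 genes whose mean FPKM over the 4 libraries was 1 or more were fitted with limma. Depth is unknown, so no value carries a counting error. Control replicate 2 stood apart. Its Pearson r was 0.933 against control replicate 1, and 0.873 and 0.886 against GLUP replicates 1 and 2, which reached 0.986 between themselves. For control replicate 1, r was 0.952 against GLUP replicate 1 and 0.957 against GLUP replicate 2. Control replicate 1 was thus closer to both treated libraries than to the other control, and the libraries did not group by treatment. Among single genes, values without control replicate 2 are given for NOG, BMP4, ID1, ID2 and ID3. The median difference of all genes tested was −0.36, and differences followed transcript GC content (Spearman rho 0.58 over 7570 genes, which are not independent). The controls also differed from each other along GC content, with a rho of −0.42 for control replicate 2 minus control replicate 1. The GC trend was thus not confined to the contrast of GLUP with control. Of 5 epithelial markers, EPCAM and CDH1 did not exceed 0.124 FPKM in any library and were lower with GLUP, whereas the keratins KRT8, KRT18 and KRT19 ran from 0.764 to 1.49 FPKM in control cells and were each higher with GLUP, from 1.32 to 2.25 FPKM. Of 4 mesenchymal markers, VIM stood between 293 and 387 FPKM with overlapping groups and CDH2 did not exceed 0.0508 FPKM. ZEB1 was at 7.05 and 19.2 FPKM in control cells against 2.88 and 2.92 FPKM with GLUP, and FN1 at 1.15 and 3.25 FPKM against 0.655 and 0.671 FPKM. Of 5 gastric mucosa markers, 4 were listed at 0 throughout and MUC5AC did not exceed 0.0128 FPKM. The part of these markers in the results was not tested. The summed fibroblast and endothelial markers, mostly COL3A1 and DCN, were at 48.9 and 60.3 FPKM in the control and 48.5 and 46.0 FPKM in the GLUP libraries, and those of blood cells at 0.845 and 0.529 FPKM against 0.914 and 1.52 FPKM.

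NOG, on chromosome 17 with a single exon, was at 8.73 and 11.96 FPKM in control cells and at 0.861 and 0.837 FPKM with GLUP. Both GLUP libraries lay far below both controls and close to each other. The means were 10.3 ± 2.28 FPKM (SD, n = 2) in control cells and 0.849 ± 0.0170 FPKM (SD, n = 2) with GLUP, a 12.2-fold lower level in treated cells. The log2 difference was −2.60 (standard error 0.29), and 12 of the 7588 genes tested had a lower one. NOG passed the filter on low values only through its control libraries. Leaving out control replicate 2 gave a difference of −2.40 and leaving out control replicate 1 one of −2.81, and with the GC trend removed it was −3.05. No annotated gene overlaps NOG, whose longest transcript has a GC content of 59.2%. In bulk RNA, fewer cells expressing NOG and less NOG RNA per cell cannot be told apart.

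The genes with the profile most like that of NOG, by Euclidean distance of centred log2(FPKM + 1) values over the 4 libraries, were the lncRNA gene ENSG00000229190, RANBP1 and PHOSPHO2, at distances of 0.336, 0.430 and 0.432 against a median of 2.32 for all genes tested. RANBP1, a cofactor of Ran in nuclear transport, stood at 378 and 340 FPKM in control cells and at 51.7 and 52.1 FPKM with GLUP.

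The other antagonist showed no such gap. BMPER, a secreted protein that binds BMPs, was at 0.465 and 0.830 FPKM in control cells and at 0.847 and 0.386 FPKM with GLUP. The groups overlapped, with a log2 difference of −0.03 (standard error 0.24).

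BMP4, the ligand, was at 16.0 and 5.77 FPKM in control cells and at 10.2 and 9.20 FPKM with GLUP. Both GLUP libraries lay between the controls, and the log2 difference was −0.01 (standard error 0.49). Leaving out control replicate 2 gave −0.67 and leaving out control replicate 1 gave 0.66, so its sign rested on which control was kept. A ratio of NOG to BMP4 within a library is not changed by a single scaling factor per library, although the GC correction would change it. NOG stood at 0.547 and 2.07 of the BMP4 level in the control libraries and at 0.0847 and 0.0910 with GLUP. There was thus less NOG than BMP4 in both GLUP libraries and in control replicate 1, but more in control replicate 2.

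Both receptors were low. BMPR1A, the type I receptor, was at 0.881 and 1.01 FPKM in the control and 0.492 and 0.655 FPKM in the GLUP libraries. BMPR2, the type II receptor, was at 0.532 and 0.523 FPKM against 0.272 and 0.299 FPKM. For both, each GLUP library lay below each control, with ratios of mean FPKM of 1.65 and 1.85 in favour of the control. Their log2 differences, −0.31 and −0.25, lay between the median of −0.02 over all 28873 genes above 0 FPKM and that of −0.36 over the genes tested. The first set takes in genes at every level above 0 and the second only those at a mean FPKM of 1 or more. Neither set thus matches the receptors in level. With a pseudocount of 0.1 the receptor differences were −0.65 and −0.70. They were 0.03 and 0.09 with centring on medians and 0.42 and 0.49 with the GC trend removed. Both corrections were estimated on genes with a mean FPKM of 1 or more and added in full on the log2(FPKM + 1) scale. For genes as low as these receptors, such a shift can turn a sign by itself, so nothing is read from these changes of sign. Both transcripts have a low GC content (39.4% and 39.1%), and the part of GC in these differences was not tested. On the same strand, BMPR1A overlaps RNU1-19P, and BMPR2 overlaps RPL13AP12 and ENSG00000289490, the last without a value. The receptor values are uncertain on this account too.

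**Figure D1:**
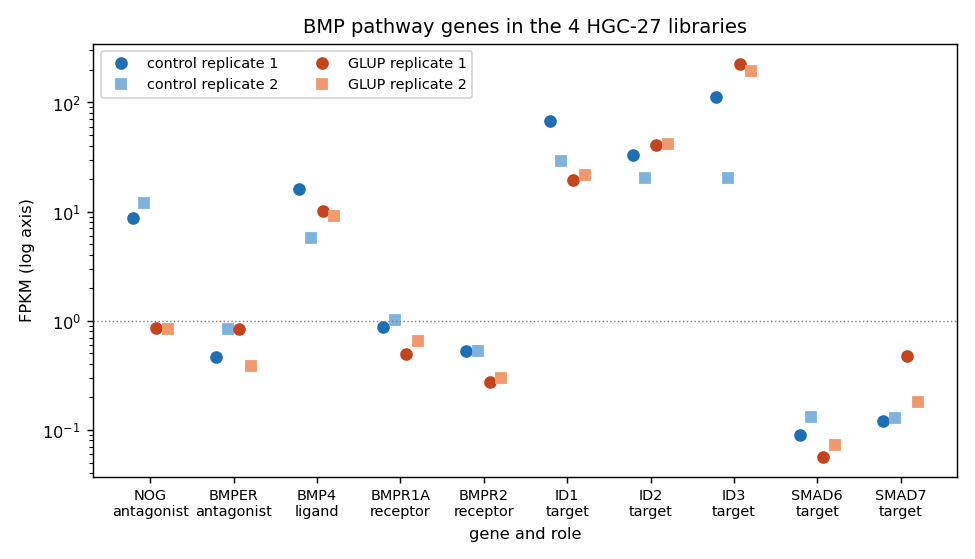
FPKM (log axis) of the 10 genes in each library, with control libraries in blue and GLUP libraries in red. The dotted line marks 1 FPKM. NOG lies at 8.73 and 11.96 FPKM in control cells and at 0.861 and 0.837 FPKM, ID3 is highest with GLUP, and the receptors, BMPER, SMAD6 and SMAD7 lie near or below the line.

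The ID genes were the most highly expressed of the 10 and did not stand on one side. ID1 was at 67.8 and 29.0 FPKM in control cells and at 19.3 and 21.7 FPKM with GLUP. Both GLUP libraries were below both controls, although control replicate 2 was closer to them than to the other control. The means were 48.4 ± 27.4 and 20.5 ± 1.74 FPKM (SD, n = 2 each), with a log2 difference of −1.08 (standard error 0.47).

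ID2 was at 33.0 and 20.3 FPKM in control cells and at 41.1 and 41.9 FPKM with GLUP. Both GLUP libraries were higher, with a log2 difference of 0.66 (standard error 0.37). ID2 overlaps the antisense gene ID2-AS1, which did not exceed 0.0880 FPKM in any library.

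ID3 was at 113 and 20.2 FPKM in control cells and at 227 and 193 FPKM with GLUP. Both GLUP libraries again lay above both controls, which themselves differed 5.58-fold. The means were 66.5 ± 65.4 and 209.9 ± 24.1 FPKM (SD, n = 2 each). The log2 difference of 2.10 (standard error 0.78), with 44 of the 7588 genes tested higher, became 0.89 when control replicate 2 was left out and 3.31 when control replicate 1 was, so its size rested largely on the control used.

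The feedback inhibitors were barely detected. SMAD6, which acts mainly on BMP receptors, was at 0.0895 and 0.131 FPKM in control and 0.0563 and 0.0728 FPKM in GLUP libraries. SMAD7, which also acts on TGF-β receptors, was at 0.121 and 0.129 FPKM against 0.476 and 0.181 FPKM. The groups did not overlap for either gene, with SMAD6 lower and SMAD7 higher with GLUP, but the log2 differences were −0.06 and 0.23. SMAD6 overlaps the lncRNA gene ENSG00000274995 on the same strand, itself at 0 to 0.143 FPKM, so its values are uncertain. Centring on medians gave 0.28 for SMAD6, and removal of the GC trend gave −0.12 for SMAD7. Both shifts were estimated on genes with a mean FPKM of 1 or more and added in full to these low values. The changes of sign are thus not read as a property of SMAD6 or SMAD7.

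**Figure D2:**
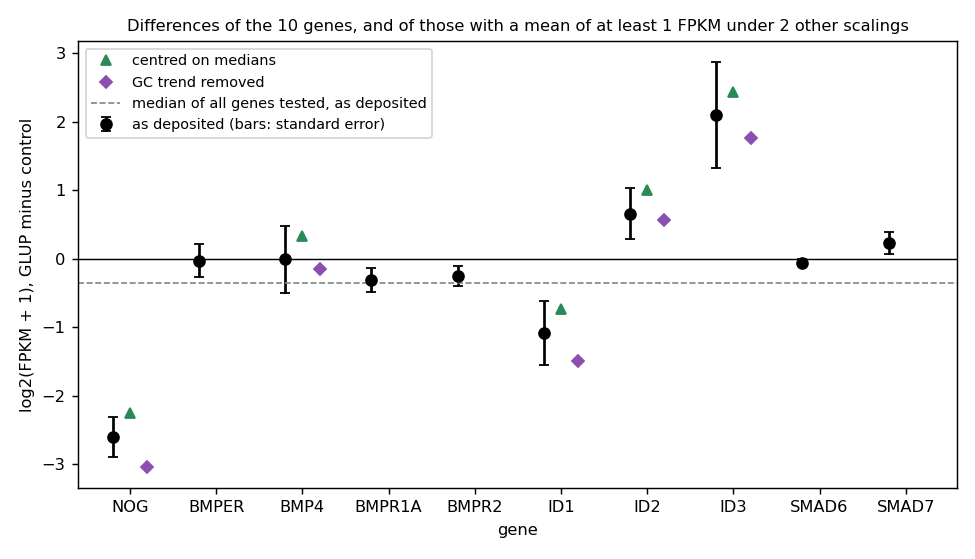
Log2(FPKM + 1), GLUP minus control, of the 10 genes, with standard errors of the limma fit. Triangles and diamonds give the 5 genes with a mean FPKM of 1 or more after centring and after removal of the GC trend, and the dashed line marks the median of all genes tested, each at a mean FPKM of 1 or more (−0.36). NOG and ID1 lie below 0 and ID2 and ID3 above 0 under all 3 scalings.

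With NOG lower in GLUP-treated cells, 3 of the 5 targets (ID2, ID3 and SMAD7) were thus higher and 2 (ID1 and SMAD6) lower. SMAD6 and SMAD7 were barely detected, and their changes of sign came with shifts estimated on genes at a mean FPKM of 1 or more. Of all genes tested, 17.5% were higher and 49.7% lower without overlap. The median log2 difference of the 5 targets was 0.23, beside −0.02 for all 28873 genes above 0 FPKM and −0.36 for the genes tested. The median of the 5 targets is the value of SMAD7, a gene under 1 FPKM in every library. This median became −0.12 with the GC trend removed, again through a shift estimated on genes at a mean FPKM of 1 or more. The sides taken by ID1, ID2 and ID3 did not change under centring (−0.74, 1.00 and 2.44), removal of the GC trend (−1.5, 0.57 and 1.77) or leaving out any 1 library. Without control replicate 2 the differences of ID1 and ID2 were −1.68 and 0.32, and without control replicate 1 they were −0.48 and 1.00. The GC contents of the NOG, ID1, ID2 and ID3 transcripts were 59.2%, 58.6%, 53.3% and 56.7%, and the part of GC in their differences was not tested.

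**Figure D3:**
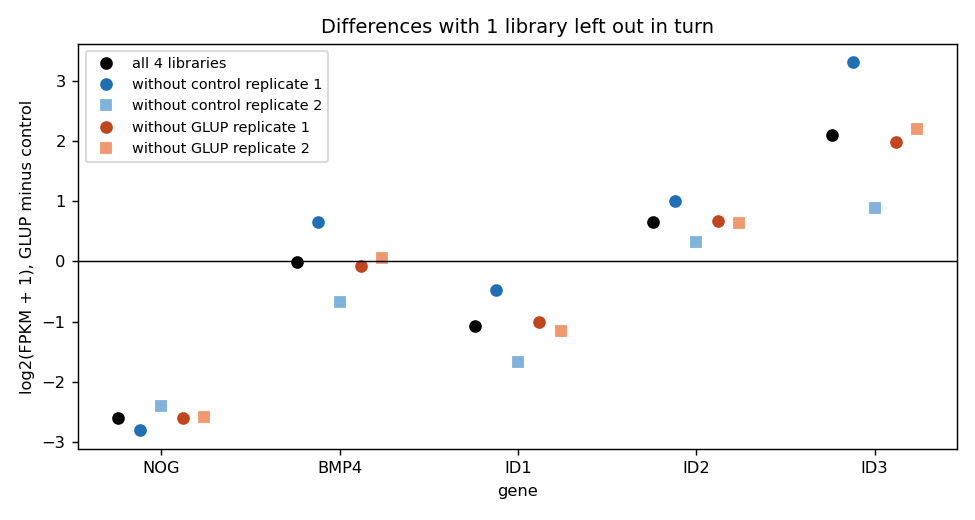
Log2(FPKM + 1), GLUP minus control, of the 5 genes with a mean FPKM of 1 or more, with all 4 libraries (black) and with each library left out. NOG stays between −2.81 and −2.40, BMP4 crosses 0, and ID3 runs from 0.89 to 3.31.

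The balance among the ID genes also stood apart between the groups. Summed FPKM of ID1, ID2 and ID3 was 213 and 69.5 in the control and 287 and 257 in the GLUP libraries. ID1 made up 31.7% and 41.7% of this sum in control cells and 6.71% and 8.48% with GLUP. ID3 made up 52.8% and 29.1% in control cells and 79.0% and 75.2% with GLUP. The ratio of ID3 to ID1, which is set within a library, was 1.66 and 0.697 in control cells and 11.8 and 8.87 with GLUP, and the ratio of ID2 to ID1 was 0.487 and 0.701 against 2.13 and 1.93. In both ratios the GLUP libraries lay above the controls. The ratio of ID3 to ID2, at 3.42 and 0.994 in control cells and 5.52 and 4.60 with GLUP, was also higher in both GLUP libraries, with a wider gap between the controls.

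**Figure D4:**
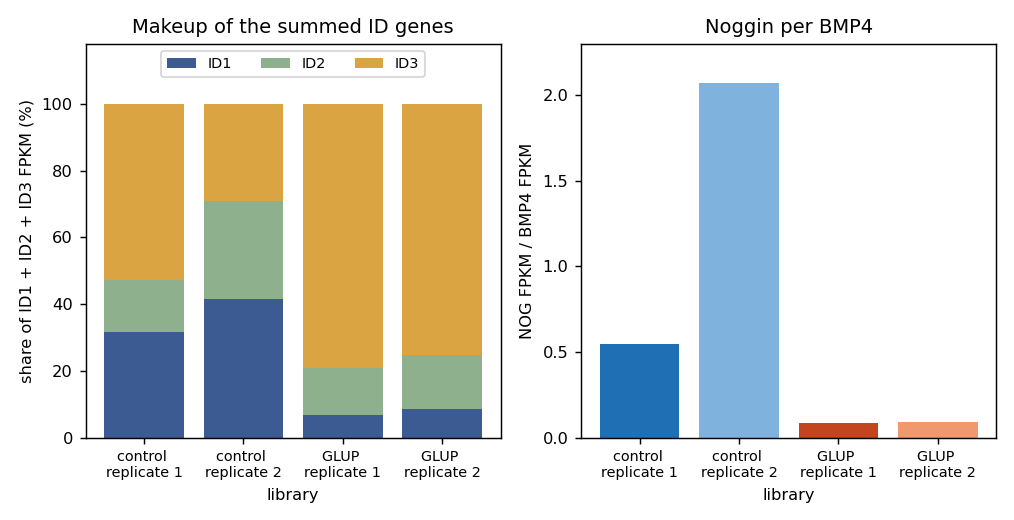
Left, shares of ID1, ID2 and ID3 in their summed FPKM (%) per library. Right, NOG FPKM divided by BMP4 FPKM per library. ID1 makes up 31.7% and 41.7% in control cells and 6.71% and 8.48% with GLUP, and NOG per BMP4 is 0.547 and 2.07 against 0.0847 and 0.0910.

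By mean level the order in control cells was ID3, ID1, ID2, BMP4, NOG, BMPR1A, BMPER, BMPR2, SMAD7 and SMAD6. The ranges overlapped between ID3 and ID1, ID1 and ID2, BMP4 and NOG, BMPER and BMPR2, and SMAD7 and SMAD6. With GLUP, ID2 stood above ID1, and NOG stood next to BMPER with overlapping ranges. The ranges of BMPER and BMPR1A and of SMAD7 and BMPR2 also overlapped with GLUP.

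Of the 10 genes, 5 (NOG, BMP4, ID1, ID2 and ID3) had a mean FPKM of 1 or more. The groups did not overlap for 4 of the 5, with ID2 and ID3 higher and NOG and ID1 lower, against 17.5% of all genes higher and 49.7% lower. Lying below both controls was thus common in these libraries, and nothing is read from these counts, since the genes were chosen on this contrast.

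The rest of the pathway was taken from 61 genes listed by role, of which 17 had a mean FPKM of 1 or more and 8 were listed at 0 in all 4 libraries. None of the 17 passed an adjusted p of 0.05 in limma, where the smallest adjusted p was 0.10, and with a fold change over 2 that rule was met by 0.0264% of all genes tested. An unadjusted p under 0.05 was found for 9 of the 17, and for 31.7% of all genes. With a fold change over 2 as well, 1 was higher and 4 were lower with GLUP, against 4.67% and 14.5% of all genes. This split became 2 higher and 1 lower with centring on medians and 0 and 1 with the GC trend removed, as that of all genes went from 354 higher and 1103 lower to 796 and 428 and to 355 and 347. The median difference of the 17 was −0.46, close to that of all genes. In 5 of the 17 the GLUP libraries lay above and in 9 below both controls, near the 17.5% and 49.7% of all genes.

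Among 18 further extracellular regulators, 5 had a mean FPKM of 1 or more. Of these, 3 were lower and 2 higher with GLUP without overlap, on a background of 49.7% and 17.5% of all genes. SOSTDC1, a secreted antagonist of BMP and Wnt ligands, was at 7.28 and 5.03 FPKM in control cells and 2.60 and 1.89 FPKM with GLUP (log2 difference −1.13, standard error 0.31, limma adjusted p = 0.103, −0.47 with the GC trend removed). CRIM1, a transmembrane protein that binds BMPs through cysteine-rich repeats, was at 3.03 and 2.10 FPKM against 0.315 and 0.299 FPKM. Its log2 difference was −1.43 (standard error 0.25, limma adjusted p = 0.10), and −1.14 with the GC trend removed. FSTL1, a secreted glycoprotein of the follistatin family and the most abundant of this list, was at 10.2 and 10.7 FPKM in control cells and 5.41 and 5.56 FPKM with GLUP (log2 difference −0.82, limma adjusted p = 0.128, −0.22 with the GC trend removed). FSTL3, a follistatin-like inhibitor of activin, stood the other way, at 0.742 and 0.523 FPKM in control cells and 2.59 and 2.22 FPKM with GLUP (log2 difference 1.06, limma adjusted p = 0.10, 0.48 with the GC trend removed). NOG had the lowest log2 difference of all regulators measured at a mean FPKM of 1 or more. Nothing is read from this rank, since NOG was chosen with its difference known. SOSTDC1, CRIM1, FSTL1 and FSTL3 did not differ beyond the adjusted threshold.

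Of 11 further ligands, 2 had a mean FPKM of 1 or more. BMP5 was at 2.39 and 4.63 FPKM in control cells and at 1.38 and 1.37 FPKM with GLUP (log2 difference −0.88, limma adjusted p = 0.138, −0.05 with the GC trend removed). BMP7, named after its values were seen, was at 1.39 and 1.14 FPKM against 1.99 and 2.79 FPKM (log2 difference 0.57, limma adjusted p = 0.188, 0.26 with the GC trend removed). The ligand RNAs thus stood on both sides, and neither passed the test.

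Of 11 further receptors and co-receptors, 2 had a mean FPKM of 1 or more. ACVR2A, a type II receptor for activins and BMPs, was at 1.68 and 6.69 FPKM in control cells and at 0.902 and 1.04 FPKM with GLUP (log2 difference −1.20, limma adjusted p = 0.167, −0.39 with the GC trend removed), with most of the gap set by control replicate 2. ENG, the co-receptor endoglin, named after its values were seen, was at 0.697 and 0.275 FPKM against 2.21 and 1.59 FPKM (log2 difference 0.97, limma adjusted p = 0.103, 0.41 with the GC trend removed).

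SMAD5, which carries the BMP signal into the nucleus, was the only one of 4 SMAD transducers with a mean FPKM of 1 or more. It was at 3.59 and 5.07 FPKM in control cells and 1.36 and 1.60 FPKM with GLUP. Its log2 difference of −1.09 (standard error 0.28, limma adjusted p = 0.10) was −0.28 with the GC trend removed. Of 9 intracellular inhibitors, FKBP1A, which keeps type I receptors inactive, was the most abundant, at 134 and 62.2 FPKM in control cells and 125 and 138 FPKM with GLUP, and the groups overlapped (log2 difference 0.52, 0.90 with the GC trend removed). BAMBI, a decoy receptor whose gene responds to BMP, was named after its values were seen. It was at 2.85 and 4.96 FPKM in control cells and 1.43 and 1.47 FPKM with GLUP (log2 difference −0.97, limma adjusted p = 0.116, −0.88 with the GC trend removed).

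The 8 further target genes gave no common direction either. Of the 4 with a mean FPKM of 1 or more, MSX1 was higher without overlap, MSX2 and RUNX2 were lower, and DLX5 overlapped. RUNX2, the osteoblast regulator, was the most abundant, at 4.02 and 4.20 FPKM in control cells and 1.13 and 1.80 FPKM with GLUP (log2 difference −1.06, standard error 0.28, limma adjusted p = 0.101, −0.66 with the GC trend removed). With the GC trend removed, the sign for MSX1 turned from 0.44 to −0.04 and that for DLX5 from 0.10 to −0.03. ID4, the remaining ID gene, and HAMP, the hepcidin gene, were listed at 0 in every library.

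The E proteins, which ID proteins bind, were all measured at a mean FPKM of 1 or more. TCF4, the most abundant, was at 7.16 and 4.96 FPKM in control cells and 8.97 and 7.31 FPKM with GLUP (log2 difference 0.38, limma adjusted p = 0.418, 1.15 with the GC trend removed), and TCF3 and TCF12 overlapped between the groups. In the TGF-β and activin arm, which shares SMAD4 and SMAD7 with the BMP arm, 2 of 13 genes had a mean FPKM of 1 or more, and neither passed the test. SMAD2, the more abundant, was at 4.76 and 1.95 FPKM in control cells and 1.80 and 0.996 FPKM with GLUP (log2 difference −0.80, limma adjusted p = 0.216, −0.10 with the GC trend removed).

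**Figure D5:**
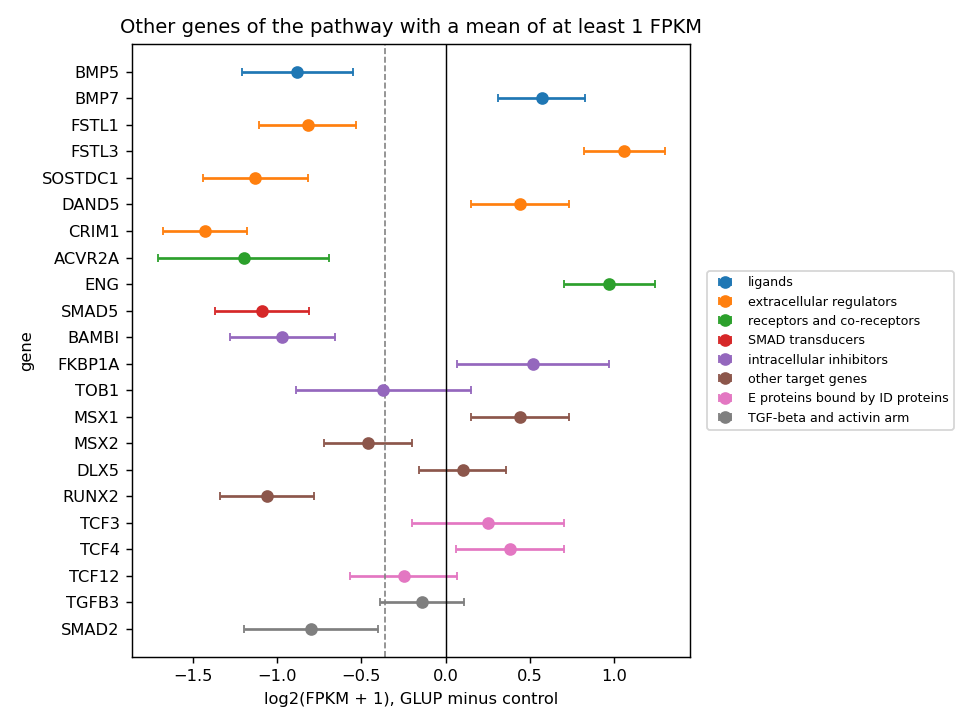
Log2(FPKM + 1), GLUP minus control, with standard errors, of the 22 other listed genes with a mean FPKM of 1 or more, coloured by role. The dashed line marks the median of all genes tested (−0.36). CRIM1 (−1.43) is lowest and FSTL3 (1.06) highest, and no role lies wholly on one side except the single SMAD transducer and the TGF-β and activin arm.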

How the data were processed

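Only the 4 RNA-seq libraries were used. The deposited FPKM values, one row per gene, were made by the authors on the Majorbio platform. HISAT2, Cufflinks and RSEM and the build GRCh38.p10 are named in the submitters' processing notes without versions or roles, whereas row IDs carry the suffix of annotation lifted to GRCh37, and the use of strand is not given in the sources used here. The 62492 rows were summed by ID without version to 62443 genes, 99.55% of which matched a symbol. Low values showed no whole-read steps, so depth is unknown. Values were tested on the log2(FPKM + 1) scale with limma 3.58.1 in R 4.3.3 (moderated variances with a mean-variance trend, Benjamini-Hochberg adjustment over 7588 genes with a mean FPKM of 1 or more). For genes under 1 FPKM the standard error came from a fit of all 28873 genes above 0. The fit was tested on simulated data. P-values measure the spread between 2 libraries a group. For the GC trend, deviations from a gene's mean were smoothed in each library against GC content (lowess, span 0.3) and subtracted.

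Members and lists were chosen with earlier results of these data known. Named genes were the 10 members, listed genes with a mean FPKM of 1 or more that did not overlap between groups and differed over 2-fold, the most abundant gene of each list, and the 3 genes nearest to NOG. BMP7, ENG, BAMBI, MSX1, MSX2, DLX5, ID4, HAMP, TCF3, TCF12 and the cell type markers were named outside this rule, after their values were seen. PECAM1, among the markers, matched no row. Promoter windows are from RefSeq on GRCh38.p14, with entries for 9 of the 10 genes. Alternatives were a pseudocount of 0.1, other filters, centring, quantile normalization, a replicate block, the GC correction, no trend, leaving out each library and, chosen after seeing the data, a ratio without a pseudocount.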

Additional observations from a re-analysis of the deposited data

How the results depend on the processing

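Past 2-fold and a limma adjusted p of 0.05, 2 genes were counted as reported, and 1 with a pseudocount of 0.1, centring or quantile normalization. There were 0 in the fits of all genes above 0, of genes at a mean FPKM of 5 or more, with no mean-variance trend and after GC correction, where 1293, 890, 1461 and 702 genes passed 2-fold at an unadjusted p under 0.05. With 1 library left out the count ran from 4 (either GLUP library) to 2710 (control replicate 1), with 1020 without control replicate 2, where a lone control is assumed to vary like the GLUP libraries. The cause was not tested. The log2 difference of NOG, −2.60, was −3.44 with a pseudocount of 0.1, −3.61 as a ratio of means without one, −2.26 with centring, −2.33 with quantile normalization and −3.05 with the GC correction, with or without the block, and ran from −2.81 to −2.40 with 1 library left out. The median of the 5 target genes was 0.68 with a pseudocount of 0.1 and ran from 0.07 to 0.39 with 1 library left out. The median of the 17 other BMP pathway genes at a mean FPKM of 1 or more was −0.46. Other filters changed the genes counted, and all other BMP pathway genes above 0 FPKM gave −0.08. At a mean FPKM of 5 or more only FSTL1, DAND5, FKBP1A and TOB1 were left, with a median of 0.04. For the 17 genes the median was −0.12 with centring and −0.05 with the GC correction, with or without the block. With 1 library left out, the median of the 17 genes ran from −0.86 to −0.40. The numbers of these genes past 2-fold and an unadjusted p under 0.05, 1 higher and 4 lower, ran from 0 to 3 and from 1 to 7 with 1 library left out, and were 0 and 0 at a mean FPKM of 5 or more. No listed gene passed the adjusted p in any of 182 fits of single genes outside those that left out a library, whereas 12 did without control replicate 1 and 4 without control replicate 2. Quantile normalization gave no value for the 5 genes under 1 FPKM or for the median of the targets.

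Replicate numbers tie no libraries to a shared day. The deviations of same-numbered libraries correlated at 0.126 across genes. With the replicate number as a block, 2 genes again passed the adjusted threshold, and 16 did when the replicate block was combined with the GC correction. Without counts, neither depth nor a detection limit can be given for SMAD6, SMAD7 or the receptors.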
